A study of Mus musculus with 188 samples.

Results

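The 94 genes described here are the mouse potassium channel genes: every protein-coding gene in the count files whose symbol starts with Kcn followed by a letter, out of 25711 gene identifiers listed. They comprise 40 genes for voltage-gated pore subunits, 15 for inward rectifiers, 14 for two-pore leak channels, 8 for calcium- or sodium-activated channels and 17 for accessory subunits. The rule itself uses no measured value, though it was set with earlier results of these data known. RNA was sequenced from coronal brain-slice cultures. The donors were C57BL/6J mice of both sexes, aged 6 to 8 weeks and without any transgene. Slices were exposed on day 7 of culture to human hemoglobin (Hb), to heme carried by human albumin (heme-albumin), or to either toxin bound to its human scavenger. Haptoglobin (Hp) is the plasma protein that binds Hb, and hemopexin (Hpx) is the one that binds heme.

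In batch 1, 10 libraries each came from control slices, from slices with 12.5, 50, 200 or 400 µM heme-albumin, and from slices with 200 µM hemeHpx, all at 24 h. In batches 2 and 3, 107 libraries carried labels that placed them in a group. At 24 h these were 10 control, 10 each with 200 and 400 µM Hb, 8 with 200 µM HbHp, 4 with 400 µM HbHp and 12 with 400 µM Hp alone. At 48 h they were 9 control, 10 each with 200 and 400 µM Hb, 8 with 200 µM HbHp, 5 with 400 µM HbHp and 11 with 400 µM Hp. All groups share the strain, the culture and the exposure on day 7. Each library is a mixed tissue of neurons, glia and vessels. Library names carry a code that recurs across groups and, in some groups, more than once. The labels do not say whether a code stands for an animal, so the libraries of a group may not be independent. The p-values measure the spread between these libraries only. For the hemeHpx group the sample tags name hemopexin while the titles name haptoglobin, and the tags were followed.

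Potassium channels let potassium leave or enter the cell and thereby set the resting potential, end action potentials and limit firing. In astrocytes, inward rectifiers take up the potassium that active neurons release. In neurons, fast delayed rectifiers allow high firing rates, low-threshold channels lie beside the nodes of myelinated axons, and calcium- or sodium-activated channels produce the afterhyperpolarization. Two-pore channels carry leak current, also in microglia, and accessory subunits change the traffic and gating of the pore subunits.

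Libraries held 11038484 to 44199060 counted reads in batch 1, 32626873 to 54174784 in batch 2 and 15587938 to 38839614 in batch 3. After a filter on low counts, 80 of the 94 genes were tested in batch 1, among 15554 genes, and 84 in batches 2 and 3, among 16473. The 14 genes left out of the batch 1 test reached at most 0.602 counts per 1000000 reads (CPM), in Kcnv1, and the 10 left out of the other test at most 0.311 CPM, in Kcnv2. Defining markers of neurons, astrocytes, oligodendrocytes and microglia were present in every group. Batches 2 and 3 also hold 2 experimental rounds, written E1 and E2 in the library names, and every HbHp library belongs to round E2 and to batch 3, which also holds every Hp library. Exons of Kcna6, Kcnab1, Kcnd3, Kcnip4, Kcnj9, Kcnj13, Kcnk1, Kcnk2, Kcnma1, Kcnn2, Kcnh7 and Kcnj15 overlap those of a gene on the opposite strand, and whether counting used strand is not given, so their counts may include reads of that partner. Of the controls, 3 libraries at 24 h and 2 at 48 h belong to round E2, and 2 at each time belong to batch 3, of which 1 at each time is in both. Batch and exposure are thus nearly confounded for HbHp and Hp.

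Levels between genes were compared as CPM per kilobase of exon in control slices. Kcnj10, the main inward rectifier of astrocytes and other glia, stood far above all other members in batch 1 controls at 207 ± 24.6 CPM per kilobase (SD, n = 10). It took 50.4% of all reads assigned to the 94 genes there, and 44.2% in the 24 h controls of batches 2 and 3. Next came Kcna1, a low-threshold axonal voltage-gated channel, at 38.2 ± 13 CPM per kilobase, and Kcnip3, a calcium-binding accessory protein of A-type channels, at 24.1. Kcna6, a relative of Kcna1, lay at 16.2 CPM per kilobase and Kcne1l, a small single-pass accessory subunit, at 13.3. Kcnk1, a two-pore channel of glia and neurons, lay at 12.9. Kcnj10 exceeded every other member by far more than its spread. The genes below it are less clearly ordered: Kcna1 and Kcnip3 differed by about the SD of Kcna1, and Kcne1l and Kcnk1 by less than the SD of Kcne1l, 4.10.

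Within the families, Kcnd3 (A-type current, 8.82 CPM per kilobase) and Kcnc1 (fast delayed rectifier, 7.94) followed Kcna1 and Kcna6 among the voltage-gated subunits. Among the inward rectifiers Kcnj16, a partner of Kcnj10, came second at 6.54 and was followed by Kcnj8, a subunit of ATP-sensitive channels in vessel walls, at 3.83. Kcnk13, a two-pore channel of microglia, had 6.68. The calcium- or sodium-activated genes were all low per kilobase, led by Kcnn3 at 1.81, Kcnn2 at 1.62 and Kcnt1 at 1.32. Kcnma1, the large-conductance calcium-activated channel, had 0.913.

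**Figure D1:**
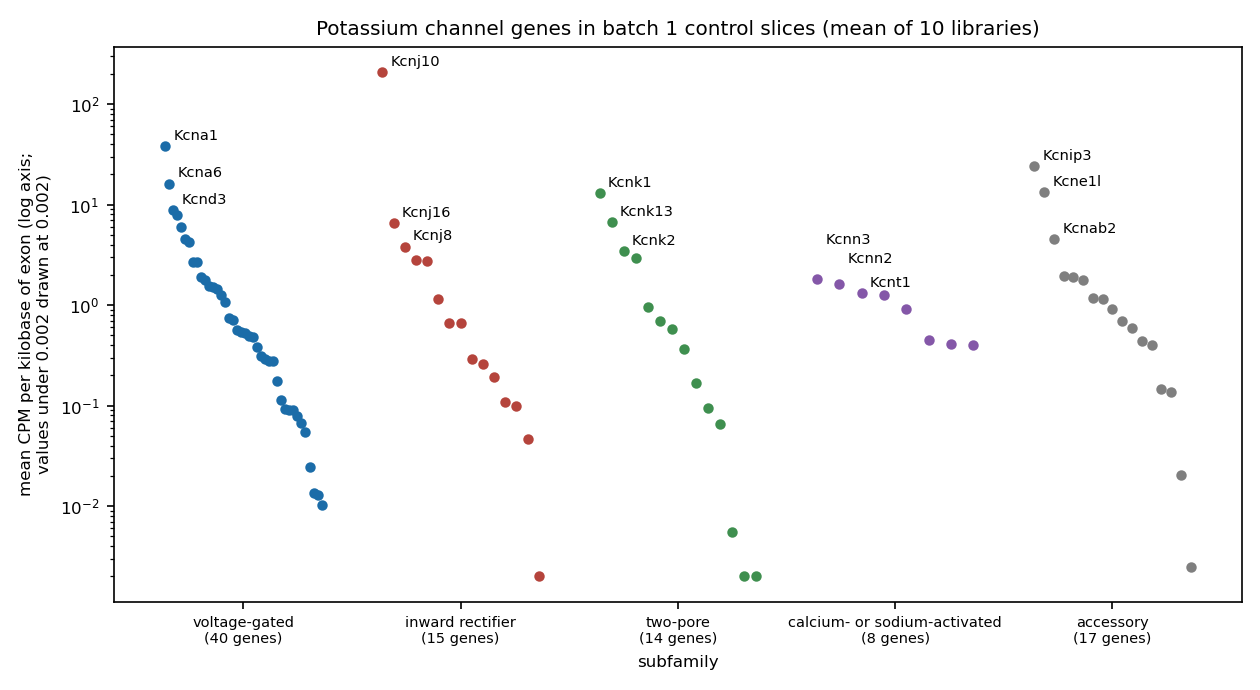
Mean level of each of the 94 potassium channel genes in batch 1 control slices (n = 10 libraries), in CPM per kilobase of exon on a log axis, ordered within the 5 families. Kcnj10 at 207 stands above all others, Kcna1 at 38.2 comes second, and genes under 0.002 are drawn at that value.

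Kcnj13, an inward rectifier of choroid plexus epithelium, differed among libraries of one group by more than its mean, at 2.78 ± 6.21 CPM per kilobase in batch 1 controls. Its level ran from 0 to 25.2 CPM over the 60 libraries of batch 1 with a median of 0.207, and from 0 to 21.6 CPM over the 107 of batches 2 and 3. The summed level of 6 choroid plexus markers (Ttr, Folr1, Kl, Clic6, Otx2, Prlr) ran from 6.43 to 3481 CPM in batch 1. The 10 libraries of batch 1 with the most Kcnj13 were the 10 with the highest marker sum, and in batches 2 and 3 the overlap was 8 of 10. For Kcne2, an accessory subunit of that epithelium, it was 9 of 10 and 8 of 10. These are descriptions, since the libraries share depth and tissue.

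The genes whose changes carry most of what follows are Kcnj10, Kcna2 and Kcne4, and their promoters are shown because the first is the most abundant member and fell, the second lay below every control in each library at 200 and 400 µM heme-albumin, and the third rose with heme-albumin and with HbHp at 48 h. Each stretch runs from 250 bases before to 50 bases after the RefSeq start on GRCm38.p6, plus strand. Kcnj10 lies at chr1:172340960-172341259, Kcna2 at chr3:107101317-107101616 and Kcne4 at chr1:78816661-78816960. Capitals mark a match to the antioxidant response element TGACNNNGC, which in the Kcne4 promoter begins 50 bases before the start.
Kcnj10: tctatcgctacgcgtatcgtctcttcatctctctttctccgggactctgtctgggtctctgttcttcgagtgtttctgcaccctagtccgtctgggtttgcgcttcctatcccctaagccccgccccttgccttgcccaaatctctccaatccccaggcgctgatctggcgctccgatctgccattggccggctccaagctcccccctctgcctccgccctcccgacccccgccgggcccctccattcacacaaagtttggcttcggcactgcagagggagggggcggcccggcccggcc
Kcna2: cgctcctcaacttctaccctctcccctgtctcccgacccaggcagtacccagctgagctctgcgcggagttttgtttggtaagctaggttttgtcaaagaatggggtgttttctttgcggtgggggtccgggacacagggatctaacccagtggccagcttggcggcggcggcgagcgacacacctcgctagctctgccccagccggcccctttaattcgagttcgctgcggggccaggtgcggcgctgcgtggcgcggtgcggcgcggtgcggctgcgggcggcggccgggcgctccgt
Kcne4: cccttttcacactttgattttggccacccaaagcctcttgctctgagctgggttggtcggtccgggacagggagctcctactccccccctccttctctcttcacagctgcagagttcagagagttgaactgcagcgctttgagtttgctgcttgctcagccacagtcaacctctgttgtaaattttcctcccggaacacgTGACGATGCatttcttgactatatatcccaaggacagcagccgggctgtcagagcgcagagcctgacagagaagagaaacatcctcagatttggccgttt
Searched on both strands, TGACNNNGC was found in 12.4% of 32851 promoters of this length and in 15 of the 94 promoters listed for member genes. TGANTCA, the AP-1 letters, was in 7.81% of all promoters and in 4 of the members', and TATAAA in 13.6% and 5. TGACGTCA, the cyclic AMP response element, was in 1.79% and in 0 of the members'. Neither the Kcnj10 nor the Kcna2 stretch held any of these letters. A match is a description and was not tested as a binding site.

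The heme-albumin series asked which channels respond to rising heme. At 12.5 and 50 µM no member was called by edgeR's quasi-likelihood test at an adjusted p of 0.05, against 0.0450% and 0.463% of all genes, and DESeq2 called 0 as well. With unadjusted p, 3 and 7 of the 80 members passed 0.05 (3.75% and 8.75%), where 7.88% and 11.7% of all genes did. At 200 µM 9 members were called, 2 higher and 7 lower, where 13.6% of all genes were called, 6.98% higher and 6.60% lower. At 400 µM 17 were called, 3 higher and 14 lower, where 29% of all genes were called, 14.7% higher and 14.3% lower. The share of members called, 21.2%, was thus below that of all genes. The median log2 fold change over the 80 members was -0.09 at 200 µM and -0.05 at 400 µM, against -0.01 over all genes at both doses. All 4 doses share the same 10 control libraries.

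Among the calcium- or sodium-activated channels, 4 of 8 fell at 400 µM and none rose, with a median log2 fold change of -0.42. Kcnn2, a small-conductance channel behind the afterhyperpolarization, had a lowest, median and highest level of 8.08, 11.7 and 17 CPM in control, 5.55, 7.20 and 15.6 CPM at 200 µM and 2.77, 5.67 and 9.83 CPM at 400 µM heme-albumin. At 200 µM, replicate 8 at 15.6 CPM gives most of the overlap with control, as the next highest library had 8.09 CPM. The overlap at 400 µM is at the edges, and the medians at both doses lie below the lowest control. Kcnn2 fell to 0.464 of control at 400 µM (log2 fold change -1.11 ± 0.17 SE, edgeR adjusted p = 6.14e-07) and was lower at 200 µM as well (-0.63 ± 0.17, adjusted p = 0.00696). Kcnt1, a sodium-activated channel of neurons, had 10.6, 11.9 and 16.9 CPM in control, 6.30, 8.52 and 11 at 200 µM and 4.07, 7.12 and 10.1 at 400 µM, so that all 10 libraries at 400 µM lay below all 10 controls. Groups did not overlap in this way for 2.10% of all genes. Kcnt1 fell to 0.540 of control at 400 µM (-0.89 ± 0.14, adjusted p = 8.28e-07). Kcnn3 (-0.51 ± 0.09, adjusted p = 1.94e-05) and Kcnn4, the intermediate-conductance channel of microglia and vessels (-0.62 ± 0.20, adjusted p = 0.0178), fell at 400 µM. Kcnma1 was at -0.33 ± 0.23 and not called. In bulk slices, fewer cells of a type and less RNA per cell cannot be told apart, here and in all results below.

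**Figure D2:**
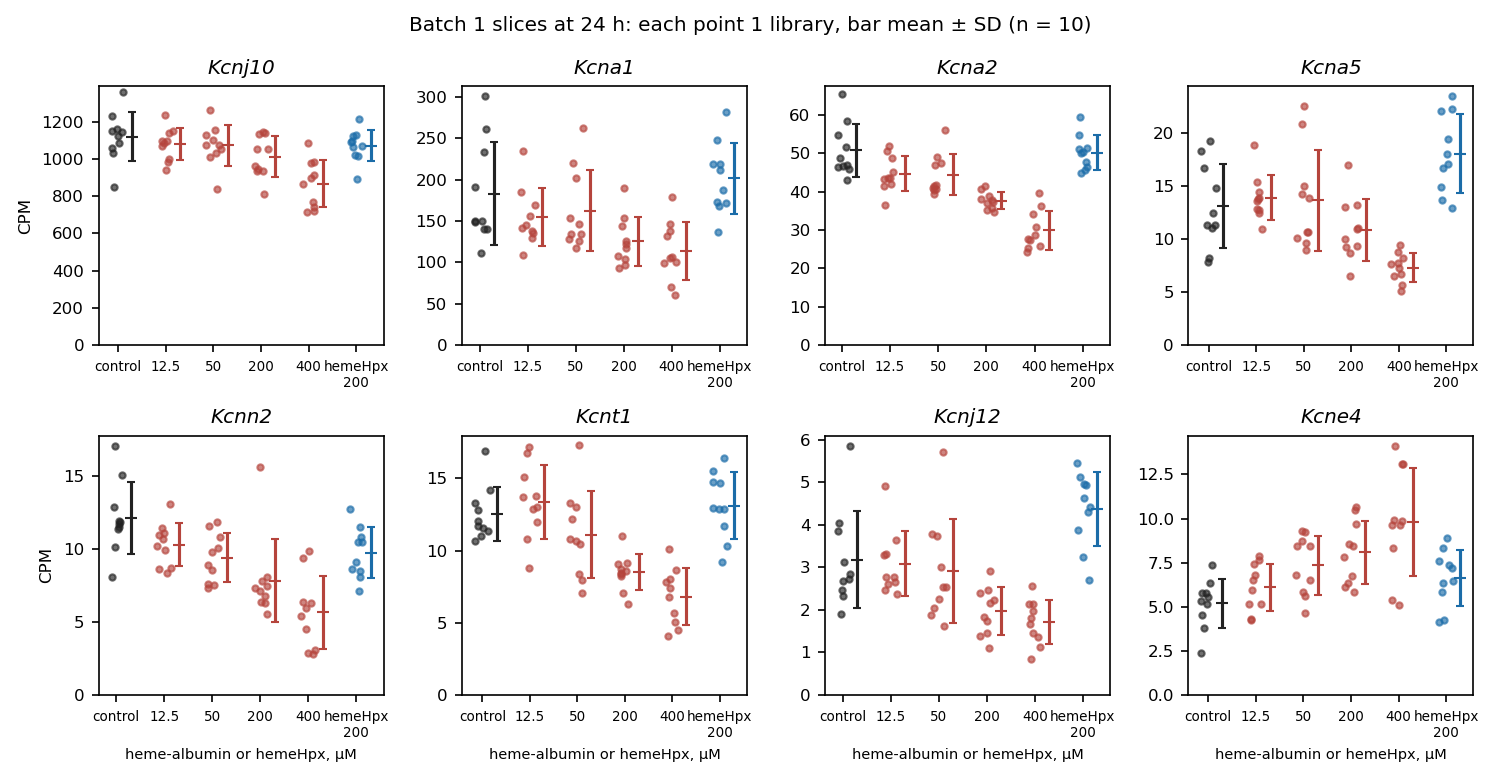
Level of 8 potassium channel genes in each batch 1 library (points, CPM on a linear axis from 0), by heme-albumin dose in µM and for 200 µM hemeHpx, with bars for the group mean ± SD (n = 10 per group). The 400 µM points of Kcna2 and Kcnt1 lie below all control points, Kcne4 goes the other way, and the hemeHpx medians of Kcna1 (199), Kcna2 (50.2) and Kcnt1 (12.9) lie above the control medians of 150, 47.8 and 11.9. None of these hemeHpx differences from control was called.

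Of the 34 voltage-gated genes tested, 5 fell and 1 rose at 400 µM. Kcna2, the axonal partner of Kcna1, had a lowest, median and highest level of 43.1, 47.8 and 65.5 CPM in control, 34.6, 37.6 and 41.4 CPM at 200 µM and 24.4, 28.1 and 39.6 CPM at 400 µM. Every library at 200 and at 400 µM lay below every control, where 0.817% and 2.10% of all genes had groups that did not overlap. Kcna2 fell by 0.43 ± 0.07 on the log2 scale at 200 µM (edgeR adjusted p = 3.32e-05) and by 0.76 ± 0.07 at 400 µM (adjusted p = 4.82e-12). Kcna1 ran from 112 to 301 CPM in control with a median of 150, and from 60.8 to 179 CPM with a median of 106 at 400 µM, so its ranges overlap. It fell at both doses (-0.54 ± 0.17, adjusted p = 0.0234, and -0.68 ± 0.17, adjusted p = 0.00143). Kcna5, a delayed rectifier also found in glia and vessels, fell from a median of 11.9 to 7.45 CPM at 400 µM (-0.84 ± 0.16, adjusted p = 4.11e-05). Kcnh2, an ERG-type channel, fell at 400 µM (-0.38 ± 0.13, adjusted p = 0.0212).

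Other voltage-gated genes rose or were not called. Kcnf1, a silent subunit that modifies other channels, rose at 200 µM (0.69 ± 0.23, edgeR adjusted p = 0.0377, or 0.0501 with no filter on low counts) and at 400 µM (0.74 ± 0.23, adjusted p = 0.0122), with control levels of 4.78 to 10.3 CPM and 5.84 to 24.6 CPM at 400 µM, which overlap. Kcnc1, a fast delayed rectifier, was at 0.32 ± 0.27 at 400 µM and not called. The A-type subunit Kcnd2 was at -0.26, the M-current subunit Kcnq3 at -0.25 and the microglial and immune channel Kcna3 at 0.20, again none called.

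Of the 14 inward rectifiers tested, 3 fell and 1 rose at 400 µM. Kcnj10 had a lowest, median and highest level of 850, 1135 and 1360 CPM in control, 811, 1008 and 1145 CPM at 200 µM and 717, 884 and 1085 CPM at 400 µM. All 10 libraries at 400 µM lay below the control median and 4 below every control. Kcnj10 fell at 400 µM (-0.37 ± 0.07, edgeR adjusted p = 5.54e-05) and was at -0.15 and not called at 200 µM. At 400 µM 7 of 10 astrocyte markers fell as well (Aldoc, Aqp4, Gfap, Gja1, Gjb6, S100b, Slc1a2) and none rose. Their summed level ran from 8415 to 12570 CPM in control and from 5916 to 9983 CPM at 400 µM, and none of the 10 was at 0. Whether this accounts for part of the Kcnj10 change was not tested.

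Kcnj12, a strong rectifier that holds the resting potential, fell at 200 µM (-0.69 ± 0.20, edgeR adjusted p = 0.0125) and 400 µM (-0.88 ± 0.20, adjusted p = 0.000391), from a control median of 2.79 CPM to 1.99 and 1.74 CPM. Its relative Kcnj2 was lower at 200 µM only (-0.29 ± 0.08, adjusted p = 0.00731). Kcnj16 fell slightly at 400 µM (-0.37 ± 0.15, adjusted p = 0.048), lost its call with no filter on low counts (adjusted p = 0.0827), and lies outside the naming rule. Kcnj9, a G protein-gated channel, rose at 400 µM (1.14 ± 0.35, adjusted p = 0.0104), with 0.395 to 3.19 CPM in control and 0.870 to 5.43 CPM at 400 µM. Kcnj8 was at -0.03 and Kcnj13 at -0.01 ± 1.01, neither called. Mural cell markers, which share vessels with Kcnj8, fell in 3 of 6 cases at 400 µM, with summed levels of 198 to 441 CPM in control and 152 to 447 CPM at 400 µM, and no marker at 0.

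Of the 10 two-pore genes tested, only Kcnk1 was called at 400 µM. It had 22.3, 27.7 and 38.6 CPM as lowest, median and highest in control and 18.5, 21.7 and 26.3 CPM at 400 µM (-0.42 ± 0.09, edgeR adjusted p = 0.000128). Kcnk6 fell at 200 µM (-0.66 ± 0.23, adjusted p = 0.0428, or 0.0645 with no filter on low counts). Kcnk13 had 13.6 to 35.4 CPM in control and 14.5 to 36 CPM at 400 µM, a log2 fold change of 0.18 that was not called. Microglial markers fell in 3 of 9 cases at 400 µM and 7 of 9 at 200 µM, with summed levels of 512 to 2144 CPM in control, 374 to 977 CPM at 200 µM and 398 to 1296 CPM at 400 µM. Of the 10 genes in that list, Siglech did not pass the filter and the 9 others were above 0 in each group.

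Of the 14 accessory genes tested, 1 rose and 1 fell at 400 µM. Kcne4, a single-pass subunit known to inhibit several voltage-gated channels, had a lowest, median and highest level of 2.36, 5.45 and 7.39 CPM in control, 5.86, 8.14 and 10.7 CPM at 200 µM and 5.08, 9.76 and 14.1 CPM at 400 µM. It rose by 0.63 ± 0.17 at 200 µM (edgeR adjusted p = 0.0074) and by 0.91 ± 0.17 at 400 µM (adjusted p = 2.31e-05), a fold of 1.88. Kcne1l, of the same protein family, fell at 400 µM (-0.56 ± 0.14, adjusted p = 0.00145), from a median of 21.4 to 13.9 CPM.

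Genes that work with these channels changed in both directions at 400 µM, where 14.7% of all genes were called higher and 14.3% lower. Of 15 tested partners, 4 rose (among them Amigo1, Hcn4 and Pex5l) and the axonal clustering protein Cntnap2 fell. Of 12 potassium pumps and cotransporters, 4 fell, including the pump subunits Atp1b1 and Atp1b2, and Slc12a4 rose. None of 7 sodium channel genes was called, while 2 of 9 calcium channel genes rose (Cacna1a, Cacna1h) and Cacna1d fell. Of 14 neuronal markers, 2 rose and none fell, and their summed median was 661 CPM in control and 665 CPM at 400 µM.

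**Figure D3:**
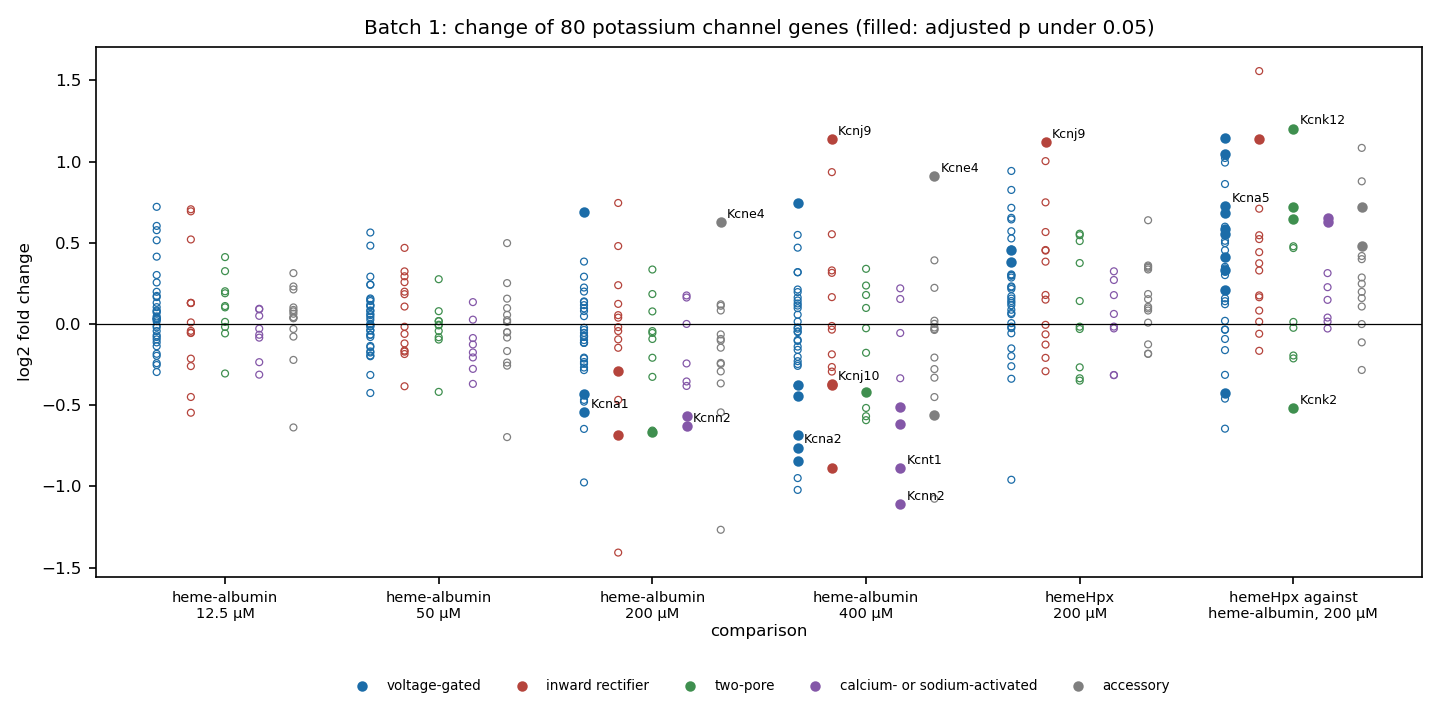
Log2 fold change of each of the 80 tested potassium channel genes in batch 1, coloured by family, for each heme-albumin dose and 200 µM hemeHpx against control and for hemeHpx against heme-albumin at 200 µM (24 h), filled where the adjusted p is under 0.05. At 400 µM heme-albumin 14 filled points lie below 0 and 3 above, and for hemeHpx against heme-albumin 2 lie below and 17 above.

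The hemeHpx group asked what the same heme does when hemopexin carries it. Against control, 3 members were called at 200 µM, all higher, where 8.20% of all genes were called, 3.77% higher and 4.44% lower. The median log2 fold change over members was 0.155 against 0.005 over all genes, and 55 of 80 were above 0. Kcna6 had a lowest, median and highest level of 74.7, 95.1 and 118 CPM in control and 112, 126 and 140 CPM with hemeHpx, which overlap only at the edge. Its log2 fold change was 0.38 ± 0.08 (edgeR adjusted p = 0.0133). Kcnj9 (1.12 ± 0.35, adjusted p = 0.0429) and Kcns1, a silent subunit (0.46 ± 0.15, adjusted p = 0.0492), lay near the threshold. Both calls were lost with no filter on low counts. They were also lost with the GC content and length correction, alone or with a replicate block by library-name code. Of the genes lowered by heme-albumin, Kcna1 was at 0.14 ± 0.17, Kcna2 at -0.02 ± 0.07, Kcnj10 at -0.06 ± 0.07 and Kcnt1 at 0.06 ± 0.13, none called. Kcnn2 was at -0.31 ± 0.16 and not called (adjusted p = 0.18). The test with other settings called 1 to 8 members here. Median marker sums in control and with hemeHpx were 661 and 818 CPM for neurons and 966 and 1238 CPM for microglia. For choroid plexus they were 16.1 and 278 CPM, and for astrocytes 11470 and 10120 CPM. Their part in these values was not tested.

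Set directly against heme-albumin at the same 200 µM, hemeHpx slices had 17 members higher and 2 lower, 23.8% of the 80 tested, where 25.9% of all genes were called, 13% higher and 12.9% lower. The median log2 fold change over members was 0.32 against 0.01 over all genes, and 62 of 80 were above 0. Of the voltage-gated genes, 9 were higher and 1 lower. Of the two-pore genes, 3 were higher and 1 lower. In the other families, 2 calcium- or sodium-activated genes, 2 accessory genes and 1 inward rectifier were higher. This comparison shares its heme-albumin libraries with the comparison against control above, so the values are given side by side and not as separate support.

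In this contrast Kcna2 had 34.6 to 41.4 CPM with heme-albumin and 44.9 to 59.5 CPM with hemeHpx, without overlap, a log2 difference of 0.41 ± 0.07 (edgeR adjusted p = 5.9e-05). Kcnh2 had 7.98 to 12.2 CPM and 13.4 to 19.5 CPM, likewise without overlap (0.58 ± 0.13, adjusted p = 0.000893), which 1.38% of all genes showed. Kcnj12 was higher by 1.14 ± 0.19 (adjusted p = 2.07e-05), from a median of 1.99 to 4.52 CPM. Kcna1 (0.68 ± 0.17, adjusted p = 0.0030), Kcna5 (0.73 ± 0.16, adjusted p = 0.000784), Kcna6 (0.34 ± 0.08, adjusted p = 0.0035) and Kcnt1 (0.63 ± 0.13, adjusted p = 0.000757) were higher too.

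Other members of the higher group had smaller or less precise differences. Kcng4, a silent subunit, was at 1.15 ± 0.42, Kcnh1, an EAG-type channel, at 1.05 ± 0.36, Kcnma1 at 0.65 ± 0.23 and Kcnk6 at 0.65 ± 0.23. Kcns1 was at 0.56 ± 0.15 and Kcnab1, a cytoplasmic beta subunit of Kcna channels, at 0.48 ± 0.13. Kcnip4 (0.72 ± 0.27) and the acid-sensitive leak channel Kcnk9 (0.72 ± 0.28) lost their call when no filter on low counts was used, Kcnk9 also with a replicate block. Kcnk12, called at 1.20 ± 0.34, has a mean under 1 CPM and falls outside the naming rule. The 2 lower genes were Kcnk2, a mechanosensitive leak channel (-0.52 ± 0.15, edgeR adjusted p = 0.00881), and the A-type subunit Kcnd3 (-0.42 ± 0.14, adjusted p = 0.0227). Kcnc1 (-0.73 to -0.65 over the settings) and Kcnk13 (0.42 to 0.49) were not called here. Both were called with DESeq2, with a replicate block by library-name code and with the GC content and length correction. Kcnj8 (0.51 to 0.57) was called with that block.

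Kcnj10 did not pass between the carriers (0.08 ± 0.07, edgeR adjusted p = 0.39), nor did Kcnn2 (0.31, adjusted p = 0.14) or Kcnk1 (0.01). Of the other lists, 8 of 9 microglial, 5 of 10 astrocyte and 3 of 8 oligodendrocyte markers were higher with hemeHpx than with heme-albumin, and 0 of 14 neuronal markers was called, where 13% of all genes were higher. The summed neuronal markers had a median of 701 CPM (592 to 822) with heme-albumin and 818 CPM (601 to 1004) with hemeHpx. The medians of the choroid plexus markers were 12.8 and 278 CPM and those of the hypothalamus markers 2.64 and 7.85 CPM, with 0 of 6 and 1 of 7 called. The summed microglial markers ran from 374 to 977 CPM with heme-albumin and from 658 to 1743 CPM with hemeHpx. Their part in the channel results was not tested. Of the pumps and cotransporters 6 of 12 were higher, among them the pump subunits Atp1b2 and Atp1b3 and the neuronal chloride extruder Slc12a5. Of 15 partners 3 were higher (Hcn2, Lgi1, Lrrc55), and 0 of 7 sodium channel genes was called.

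Before the hemoglobin series, the rounds within batches 2 and 3 need a description, because more members were called between them than for any exposure there. Between rounds E2 and E1, 54 of 84 members were called, 34 higher and 20 lower in E2, where 68.0% of all genes were called, 36.1% higher and 31.9% lower. Kcnc1 had 39.3, 94.1 and 171 CPM as lowest, median and highest in round E1 (n = 53) and 5.86, 20.8 and 43.4 CPM in round E2 (n = 54). Of the 53 E1 libraries, 50 lay above every E2 library. Its fold in E2 was 0.220 (log2 -2.18 ± 0.12, edgeR adjusted p = 5.79e-29). Within the 24 h controls the values were 70.7 to 153 CPM in E1 (n = 7) and 17.1 to 24.8 CPM in E2 (n = 3). Kcnj10 was lower in E2 as well, at 304 to 932 CPM against 709 to 1280 CPM (log2 -0.35).

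Other members lower in round E2 were Kcnh7 (-0.90), Kcnip1 (-0.86), Kcnj16 (-0.79) and Kcnd3 (-0.78), and members higher in it were Kcnj15 (0.94), Kcnk6 (0.94), Kcnk13 (0.72) and Kcnj12 (0.69), all log2 values. With a replicate block by library-name code 19 members were called between rounds, and Kcnh7, Kcnj15 and Kcnk6 were not. All 9 microglial and all 8 oligodendrocyte markers tested were also higher in E2. What distinguishes the rounds is not given in the sources used here, and treatment effects below come from a model with terms for batch and round.

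Hemoglobin without haptoglobin gave no member a call at either dose or time. At 24 h 0 of 84 members were called by edgeR at 200 and at 400 µM Hb, where 0.0971% and 0.522% of all genes were, and 2 and 3 members had an unadjusted p under 0.05 (2.38% and 3.57%), as did 3.13% and 6.93% of all genes. At 48 h 0 were called at either dose, where 0.310% and 0.601% of all genes were, with 3 and 6 members under an unadjusted p of 0.05 (3.57% and 7.14%), against 4.76% and 7.07% of all genes. DESeq2 called 0 in each of these. Kcnj10, for example, had 662, 959 and 1096 CPM as lowest, median and highest with 200 µM Hb at 48 h and 696, 997 and 1040 CPM in the 48 h controls, which overlap almost fully. Kcne4 had 5.33 to 8.34 CPM with 200 µM Hb at 48 h and 4.09 to 7.87 CPM in those controls.

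With HbHp at 24 h, Kcnab1 was the member that rose at both doses. It had 9.09, 10.5 and 14.7 CPM as lowest, median and highest in the 24 h controls and 12.9, 17 and 21 CPM with 200 µM HbHp. The log2 fold change was 0.52 ± 0.13 (edgeR adjusted p = 0.0200) at 200 µM and 0.50 ± 0.16 (adjusted p = 0.0419) at 400 µM. The call at 400 µM was lost without replicate 1, 3 or 4 of its 4 libraries (adjusted p = 0.132, 0.0613 and 0.131) and with no filter on low counts (0.0637), and at 200 µM without control replicate 11 (0.0619). With 400 µM Hp alone Kcnab1 was at 0.49 ± 0.12 (adjusted p = 0.0341). These 3 comparisons share the 24 h controls. Kcnk5, an alkaline-activated leak channel, fell with 200 µM HbHp (-0.65 ± 0.18, adjusted p = 0.0396). The Kcnk5 call was lost without control replicate 8 and with no filter on low counts. It was also lost with the GC content and length correction and with a replicate block by library-name code. In all, 2, 1 and 1 members were called, where 1.93%, 5.15% and 0.704% of all genes were. With round E2 analysed alone, none of these 4 calls was made. Kcnj10 at 400 µM HbHp had 623, 655, 668 and 723 CPM in its 4 libraries, all below the control range of 768 to 954 CPM, where 3.08% of all genes had groups that did not overlap. It was not called (log2 fold change -0.25 ± 0.12, adjusted p = 0.231), but was without the round term. The summed oligodendrocyte precursor markers in these libraries ran from 943.9 to 1303 CPM, against 1321 to 1688 CPM in the 24 h controls. Median sums were 1145 against 235.6 CPM for choroid plexus and 6830 against 6382 CPM for astrocyte markers. The part of these markers in the channel results was not tested.

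At 48 h with 200 µM HbHp, 7 of 84 members were called, 2 higher and 5 lower, where 11.9% of all genes were, 7.04% higher and 4.85% lower. At 400 µM it was 5, 2 higher and 3 lower, where 11.9% of all genes were as well, 7.39% higher and 4.56% lower. The medians over members were -0.16 and -0.14, against -0.01 and 0.00 over all genes. By family at 200 µM, 3 of 36 voltage-gated genes fell, 1 of 14 inward rectifiers rose and 1 fell, 1 of 8 calcium- or sodium-activated genes fell, 1 of 15 accessory genes rose and 0 of 11 two-pore genes was called.

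**Figure D4:**
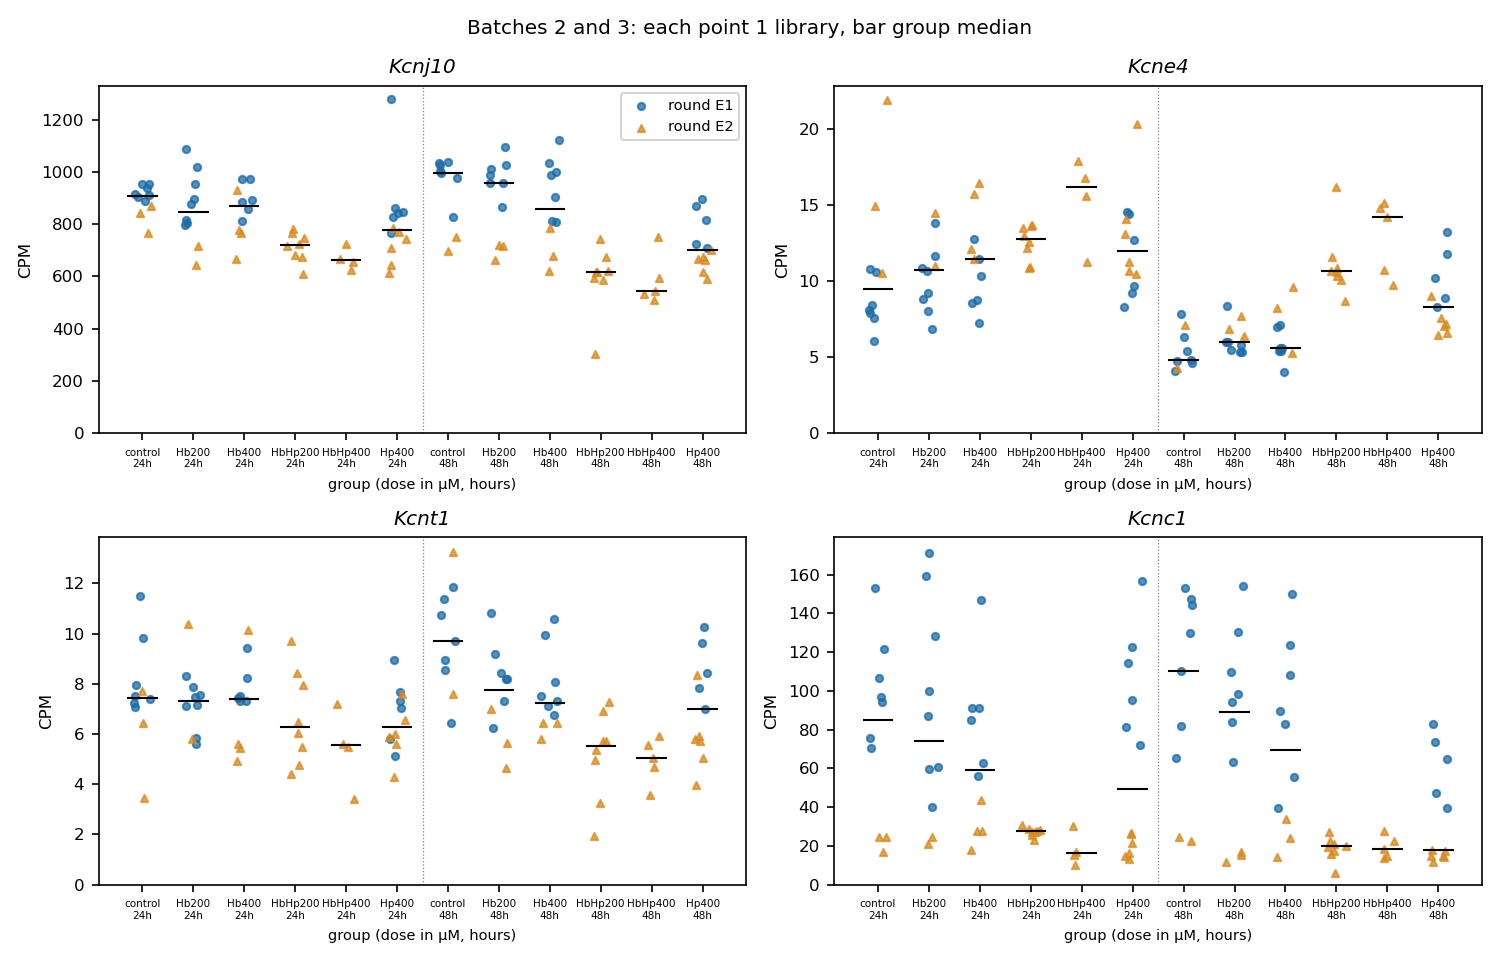
Level of Kcnj10, Kcne4, Kcnt1 and Kcnc1 in each labelled library of batches 2 and 3 (CPM), by exposure and time, with round E1 as circles, round E2 as triangles and bars at group medians. With HbHp at 48 h, Kcne4 lies above the 48 h controls, while Kcnc1 separates by round, with medians of 94.1 in E1 and 20.8 CPM in E2.

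Kcne4 rose in both HbHp groups at 48 h. It had 4.09, 4.78 and 7.87 CPM as lowest, median and highest in the 48 h controls and 8.71, 10.7 and 16.2 CPM with 200 µM HbHp. With 400 µM HbHp its 5 libraries had 10.7, 15.1, 14.8, 14.3 and 9.72 CPM. All HbHp libraries at 48 h lay above every 48 h control, where 1.76% and 4.67% of all genes had groups that did not overlap. The log2 fold change was 0.82 ± 0.19 (edgeR adjusted p = 0.00173) at 200 µM and 1.04 ± 0.21 (adjusted p = 0.000166) at 400 µM. Within round E2 alone, with 2 controls, the values were 0.95 ± 0.26 (adjusted p = 0.0266) and 1.16 (adjusted p = 0.00650). In control slices the gene itself fell between 24 and 48 h (-0.92 ± 0.16, adjusted p = 9.94e-05). The 24 h controls ran from 6.09 to 22 CPM and overlap with the HbHp libraries of either time.

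Kcnj10 fell with HbHp at 48 h. It had 696, 997 and 1040 CPM as lowest, median and highest in the 48 h controls and 304, 617 and 745 CPM with 200 µM HbHp, where 7 of 8 libraries lay below every control. With 400 µM HbHp the 5 libraries had 752, 543, 510, 533 and 594 CPM. The log2 fold change was -0.43 ± 0.10 (edgeR adjusted p = 0.00181) and -0.45 ± 0.11 (adjusted p = 0.00281). Within round E2 alone it was -0.31 (adjusted p = 0.263) and -0.34 (adjusted p = 0.266), so neither call was made there. Of 10 astrocyte markers, 1 fell at 200 µM (Aldh1l1) and 2 at 400 µM (Aldoc, Gfap), with summed levels of 6232 to 11060 CPM in the 48 h controls and 6067 to 10580 CPM with 200 µM HbHp, and none at 0. With 400 µM HbHp the sum was lower, at 4953 to 7369 CPM with a median of 6498, against a control median of 8292. The summed oligodendrocyte precursor markers ran from 1408 to 1732 CPM in those controls and from 868.5 to 1363 CPM with 200 µM HbHp, without overlap, and 1 of 6 (Vcan) fell at each dose. The summed microglial markers had medians of 1626 CPM in control and 2542 and 2427 CPM with 200 and 400 µM HbHp, and with the round term 0 of 9 were called at 200 µM and P2ry12 fell at 400 µM. The summed border macrophage markers had medians of 76.1, 114 and 149 CPM in the same order, with Pf4 higher at both doses and Cbr2 lower at 400 µM. The part of these markers in the channel results was not tested.

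Kcnt1 had 6.44 to 13.3 CPM in the 48 h controls, 1.95 to 7.26 CPM with 200 µM HbHp and 3.59 to 5.93 CPM with 400 µM HbHp, and fell at both doses (-0.59 ± 0.20, edgeR adjusted p = 0.0338, and -0.64 ± 0.22, adjusted p = 0.0427). Its 5 libraries at 400 µM lay below all controls, where 4.67% of all genes had groups that did not overlap. The call at 400 µM was lost without replicate 1, 3 or 4 of that group (adjusted p = 0.120, 0.0674 and 0.0844), and at 200 µM without control replicate 7 or 9 (0.0970 and 0.0507). The GC content and length correction ended both (0.116 at 200 µM and 0.0614 at 400 µM), and the use of no filter on low counts ended the call at 400 µM. Kcnj2 rose at both (0.33 ± 0.11, adjusted p = 0.0278, and 0.44 ± 0.12, adjusted p = 0.00562), but was not called at 200 µM without control replicate 9 (0.0619) or at 400 µM without replicate 4 (0.0589). At 200 µM the voltage-gated genes Kcnd1 (-0.38 ± 0.11) and Kcns1 (-0.64 ± 0.18) fell, and at 400 µM Kcne1l fell (-0.97 ± 0.27, adjusted p = 0.0083). Replicate 1 of 200 µM HbHp at 48 h stands apart, with 0.104% of its reads on the 94 genes where the group averaged 0.154%. Without that library, an alternative added after seeing the data, 3 of the 7 calls remained: Kcne4 (0.72, adjusted p = 0.00972), Kcnj10 (-0.34, adjusted p = 0.00772) and Kcns1 (-0.57, adjusted p = 0.0428). With no round term the counts were 18 and 16, and within round E2 alone 2 and 1.

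Kcnc1, Kcna1 and Kcna2 were at -0.62, -0.18 and -0.24 with 200 µM HbHp at 48 h, none called. Without the round term Kcnc1 and Kcna2 were called. Kcna2 was also called with a replicate block by library-name code, alone or with the GC content and length correction. Kcnj8 was at 0.76 (edgeR adjusted p = 0.12) and Kcnj13 at 2.36 ± 1.24 (adjusted p = 0.22). The summed choroid plexus markers had a median of 13.07 CPM (8.23 to 411.3) in the 48 h controls. With 200 µM HbHp it was 553.4 CPM (5.25 to 1768). Of the partners, pumps and calcium channel genes, 1 each fell (Lrrc55 of 16, Atp1b2 of 13, Cacna1h of 9), and 0 of 7 sodium channel genes was called.

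**Figure D5:**
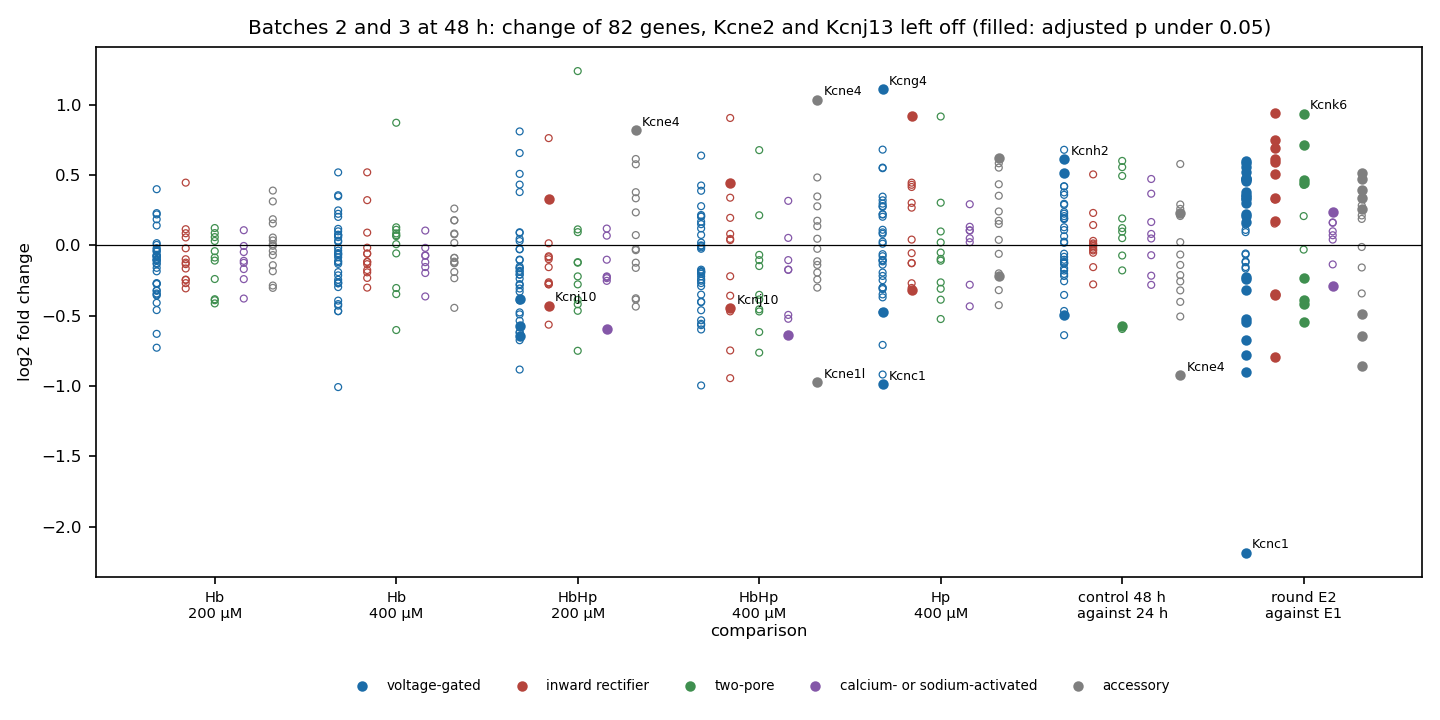
Log2 fold change of 82 tested potassium channel genes (Kcne2 and Kcnj13 are left off for scale) in batches 2 and 3, coloured by family, for each exposure against control at 48 h, control at 48 h against 24 h and round E2 against E1, filled where the adjusted p is under 0.05. Neither Hb dose has a filled point, Kcne4 is the highest filled point for both HbHp doses (0.82 and 1.04), and Kcnc1 lies lowest between the rounds (-2.18).

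Members also differed at 48 h between Hp without hemoglobin and control. All these Hp libraries lie in batch 3, with 2 of the 48 h controls, so batch and exposure are nearly confounded. With 400 µM Hp alone, 7 of 84 members were called, 3 higher and 4 lower. Of all genes 10.8% were called, a larger share, with 4.88% higher and 5.88% lower. Kcnc1 fell by 0.99 ± 0.25 on the log2 scale (edgeR adjusted p = 0.0057) and Kcnj10 by 0.32 ± 0.09 (adjusted p = 0.0142). Kcnip3 was lower too (-0.22 ± 0.07, adjusted p = 0.0287). Its call was lost with the GC content and length correction, with a replicate block by library-name code and without the round term. Kcne4 rose by 0.62 ± 0.17 (adjusted p = 0.0125), Kcnj8 by 0.92 ± 0.30 (adjusted p = 0.0351) and Kcng4 by 1.11 ± 0.39 (adjusted p = 0.0488). The Kcng4 call was lost with no filter on low counts and with a replicate block by library-name code. Within round E2 alone 0 were called, as with a replicate block by title number. The summed microglial markers had a median of 2886 CPM with Hp and 1626 CPM in the 48 h controls, with 0 of 9 called, and the border macrophage markers 135.5 and 76.1 CPM, with Pf4 higher. Their part in the channel results was not tested.

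Matched scavenger comparisons gave few calls. HbHp against Hb at 200 µM differed in Kcnab1 at 24 h (0.52, edgeR adjusted p = 0.0453), where 0.607% of all genes were called. At 48 h it differed in Kcne4 (0.63 ± 0.19, adjusted p = 0.0286) and Kcnj10 (-0.41 ± 0.10, adjusted p = 0.00594), where 4.98% of all genes were called. Kcne4 had 5.33 to 8.34 CPM with Hb and 8.71 to 16.2 CPM with HbHp, without overlap, which 0.783% of all genes showed. Its call was lost without replicate 1 of 200 µM HbHp (0.54, adjusted p = 0.105) and with the GC content and length correction (0.58, adjusted p = 0.0893). Within round E2 alone 0 members were called at either time. HbHp against Hp at 400 µM called 0 members at 24 and at 48 h by edgeR, where 0.619% and 1.44% of all genes were, with 3 and 8 members under an unadjusted p of 0.05 (3.57% and 9.52%, against 8.98% and 15.9% of all genes), and DESeq2 called 0. The change of effect between 24 and 48 h, tested as an interaction, called 0 members for 200 µM Hb and 0 for 200 µM HbHp, where 0% and 0.0121% of all genes were, with 1 and 10 members under an unadjusted p of 0.05 (1.19% and 11.9%, against 0.716% and 10.2% of all genes), and DESeq2 called 0.

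Between control slices at 24 and at 48 h, 6 members differed, 3 higher and 3 lower at 48 h. Of all genes 4.50% were called, 1.66% higher and 2.85% lower. The controls at 24 and 48 h mostly carry different library-name codes. Besides Kcne4, the genes Kcnk5 (-0.57, edgeR adjusted p = 0.0141) and Kcnh5 (-0.50, adjusted p = 0.0351) fell, and Kcnh2 (0.62, adjusted p = 0.0208) and Kcnip3 (0.23, adjusted p = 0.0163) rose. In round E2 alone, or with a replicate block by library-name code, 1 member was called, and without the round term 3. None of these 4 genes was called in round E2 alone or with that block.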

How the data were processed

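RNA was extracted from the slices and sequenced as Illumina TruSeq mRNA libraries. The authors deposited 1 file of raw read counts per gene for each library, made per the submitters' processing notes with featureCounts on GRCm39. The aligner and the use of strand are not given in the sources used here. Of 188 libraries, 167 were placed in 18 groups by their labels. The 21 others, 20 tagged HbHpx against a different title and 1 control with conflicting times, entered no comparison.

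Deposited counts were tested with edgeR 4.0.16 in R 4.3.3 (TMM scaling, filterByExpr with a minimum count of 10, quasi-likelihood test, Benjamini-Hochberg adjustment over all genes tested, call at an adjusted p under 0.05). Batch 1 was fitted alone with its 6 groups. Batches 2 and 3 were fitted together with terms for batch and for the round in the library name. Neither fit had a term for the library-name code. Fold changes are log2 values with their SE, and levels are CPM, counts per 1000000 reads of TMM-scaled library size. Lengths, GC content and overlaps come from the GRCm38 annotation of GENCODE, and promoters from RefSeq on GRCm38.p6, with 69 members matched.

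In each comparison up to 12 raised and 12 lowered members with the largest changes among called genes of at least 1 CPM were named, plus 16 landmark genes in the main comparisons. The members and lists were chosen with earlier results of these data known. The promoters printed, and genes said to lie outside this rule, were chosen after their values were seen. Alternatives were DESeq2 1.42.0, RLE scaling, no filter, a GC and length correction, replicate blocks, no round term, round E2 alone and leaving out replicates. The values of some members are not reported here, though the counts include them. The edgeR test was tried on simulated counts of the batch 1 groups, without batch, round or code effects. The model of batches 2 and 3 and the alternatives were not tried in this way. No 2 libraries of the same group and batch agreed within sampling noise (630 pairs, lowest chi-square per degree of freedom 3.48). Pairs of a group across batches were not compared.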

Additional observations from a re-analysis of the deposited data

Results flagged for a closer look

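Of 240 group tests over 15 members, 15 placed 1 library apart from the rest of its group by Dixon's criterion, which chance does in about 1 in 20 groups. Replicate 1 of 200 µM HbHp at 48 h gave 6 of them, with the lowest Kcnj10 (304 CPM), Kcna2 (26.02), Kcna6 (81.4), Kcnc1 (5.86) and Kcnn3 (6.49) and the highest Kcne4 (16.2) of its 8 libraries. Replicate 10 of 200 µM Hb at 24 h gave 2, the highest Kcna2 (62.8 CPM) and the lowest Kcnj2 (9.18) of its group.

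In the other groups, the lowest values that stood apart were Kcnj16 in batch 1 control replicate 13 (14.03 CPM) and in 24 h control replicate 11 of batches 2 and 3 (10.97 CPM), Kcnt1 in 24 h control replicate 8 (3.44 CPM), Kcnk1 in 48 h control replicate 9 (16.9 CPM) and Kcnc1 in 12.5 µM heme-albumin replicate 8 (33.1 CPM). Kcnn2 stood apart at the top in 200 µM heme-albumin replicate 8 (15.6 CPM) and in 400 µM HbHp replicate 4 at 24 h (10.6 CPM).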

How the results depend on the processing

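Of the members given here that were called at 400 µM heme-albumin, 15 of 16 kept their call under each alternative run in batch 1, as did 7 of 9 at 200 µM and 16 of 18 for hemeHpx against heme-albumin. Kcnj16 at 400 µM, Kcnf1 and Kcnk6 at 200 µM, and Kcnip4 and Kcnk9 for hemeHpx against heme-albumin, lost it with no filter on low counts, and Kcnk9 also with a replicate block. In batches 2 and 3, only Kcne4 between control times and 10 of 22 named members between rounds kept their call under each alternative. Every HbHp call was lost under at least 1 setting, and where values below do not show why, the cause was not tested.

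For hemeHpx against control, 3 members were called, 1 with the GC content and length correction or with no filter, and 8 with a replicate block by library-name code. At 50 µM heme-albumin that block, alone or with the GC and length correction, called 1 in place of 0. DESeq2 called 2 in place of 1 for 400 µM HbHp at 24 h.

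Without the round term, 18 and 16 members were called for 200 and 400 µM HbHp at 48 h in place of 7 and 5, 4 for 400 µM HbHp at 24 h, 5 and 9 for HbHp against Hb at 24 and 48 h, 0 for Hp at 24 h and 3 between control times. In round E2 alone, with fewer controls, the counts were 2 and 1 for 200 and 400 µM HbHp at 48 h, 0 for HbHp at 24 h at either dose, 0 for HbHp against Hb at either time, 0 for Hp at either time, 1 for HbHp against Hp at 48 h and 1 between control times. The GC and length correction gave 4 for 200 µM HbHp at 48 h, 1 at 24 h, 0 for 400 µM at 24 h, and 0 and 1 for HbHp against Hb. No filter gave 1 for 200 µM HbHp at 24 h, 0 for 400 µM and 0 for HbHp against Hb at 24 h.

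The main tests had no term for libraries sharing a code or title number, since not every such pair's residuals correlated over 0.1. That rule does not show the libraries to be independent. By library-name code, the median correlation in batch 1 was 0.192 within a code and -0.0101 between codes. By that code, 94 of 169 same-code pairs in batch 1 and 124 of 291 in batches 2 and 3 had residuals correlated over 0.1, and 30 of 60 and 17 of 107 libraries correlated best with one of their own code. By title number it was 165 of 499 pairs and 18 of 107 libraries. With a replicate block by title number, 0 members were called in each HbHp and Hp comparison that had calls, and 33 between rounds. With the block by library-name code, 19 were called between rounds in place of 54, 1 between control times, 1 and 0 for 200 and 400 µM HbHp at 24 h, 0 and 4 for HbHp against Hb, and 0 for Hp at 24 h. With that replicate block and the GC and length correction, 22 were called between rounds, 2 between control times, 0 for HbHp at 24 h, 0 for HbHp against Hb at 24 h, and 0 and 4 for Hp at 24 and 48 h.

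Libraries left out 1 at a time were those of 400 µM HbHp, the E2 controls for 200 µM HbHp, and replicate 1 of 200 µM HbHp at 48 h, but no other 200 µM HbHp library. This gave 3 to 6 calls for 200 µM HbHp at 48 h, 3 to 5 for 400 µM at 48 h, 0 to 2 for 400 µM at 24 h, 1 to 2 for 200 µM at 24 h, 0 to 1 for HbHp against Hp at 48 h and 1 to 1 for HbHp against Hb at 48 h. The fewest came without replicate 1 of 200 µM HbHp at 48 h, replicate 4 of 400 µM HbHp at 48 h (3), replicate 1 or 3 of 400 µM HbHp at 24 h (0), and control replicate 8 or 11 at 24 h (1). Omitting replicate 1 of the 48 h HbHp group was chosen after seeing the data.

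Among members given here, the log2 values that changed sign were all of uncalled genes. At 400 µM heme-albumin, Kcnj13 went to 1.53 and 1.54 with the replicate block and with the block and the GC and length correction (both) and to 0.0327 with no filter, and Kcnj8 to 0.0249 with the block. For hemeHpx against control, Kcna2 went to 0.0546, 0.0666 and 0.0006 with the correction, with both and with the block, and Kcnt1 to -0.0399 and -0.0508 with the correction and with both. Against heme-albumin, Kcnk1 went to -0.0269, -0.0340 and -0.0041 with the correction, with both and with no filter, and Kcnn4 to 0.0150 with the block. For 200 µM HbHp at 48 h, Kcnq3 went to -0.0320, -0.0951 and -0.0365 with the correction, with both and with the block by code, to -0.0161 with the block by title and to -0.190 in round E2 alone. Kcnd2 went to -0.0113 with both, -0.0464 without the round term and -0.208 in round E2 alone. Without the round term Kcna1 went to 0.0107 and Kcnk1 to -0.0483. Kcnk2 went to 0.0353 with the block by title and 0.0815 in round E2 alone, where Kcnk13 went to -0.162 and Kcnn4 to 0.0132.

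Depth limits the genes under about 1 CPM, such as Kcnk12.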

Other observations

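Of the 21 libraries that the labels place in no group, 10 are tagged HbHpx at 24 h and 10 at 48 h, each at 400 µM. Over the 24 h libraries Kcnj10 ran from 608 to 1012 CPM with a median of 853, and over those at 48 h from 440 to 796 CPM with a median of 584. Kcne4 ran from 7.04 to 11.9 CPM (median 9.77) at 24 h and from 6.98 to 12 CPM (median 7.99) at 48 h. Kcnn2, the small-conductance channel, ran from 2.79 to 8.26 CPM and from 1.62 to 8.85 CPM, and Kcnk1, the two-pore channel, from 12.4 to 18.8 CPM and from 11.3 to 17.6 CPM. The single control with conflicting times had 800 CPM of Kcnj10 and 6.62 CPM of Kcne4.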
